A study of Mus musculus with 2 samples.

Results

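A set of 10 genes that mark the lining of blood vessels (Pecam1, Cdh5, Cldn5, Kdr, Flt1, Tek, Eng, Erg, Sox17 and Sox18) was followed in the open chromatin of the mouse urinary bladder. They are 10 of 21938 protein-coding genes on chromosomes 1 to 19, X and Y, and they were taken by symbol from the GENCODE M21 annotation on mm10. DNase-seq, which reads out open chromatin as the places where DNase I cuts DNA in isolated nuclei, had been run on whole bladder tissue of 2 female B6CASTF1/J mice aged 36 days. Mice of this strain are F1 offspring of a C57BL/6J and a CAST parent. The labels number the animals 5 and 6 and make them biological replicates 1 and 2, with 1 technical replicate each and no treatment, transgene or second tissue. Both libraries come from undissected tissue, so vessels contribute an unknown share of the nuclei, and fewer endothelial cells cannot be told apart from less open chromatin per endothelial cell. With 1 group of 2 animals no p-value can be computed, and errors are the SD between the animals.

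Endothelial cells line every vessel and hold together through adherens junctions, to which VE-cadherin belongs, and tight junctions, to which claudin-5 belongs. PECAM-1 is a further adhesion protein of their contacts, and its gene is grouped with the junction genes below. Vascular endothelial growth factor acts on endothelial cells through VEGF receptors, angiopoietins act through the Tie2 receptor, and endoglin is a co-receptor for BMP ligands of the TGF-beta family. Their identity is kept by transcription factors of the ETS family, such as ERG, and of the SOXF group, SOX7, SOX17 and SOX18, and known endothelial enhancers in mouse and human commonly hold ETS motifs, often several close together.

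A gene was called open in an animal when a peak of the authors' larger list touched the 1000 bp on either side of an annotated transcript start, and its start height was that of the highest such peak. Peak height is the authors' own signal, in a unit whose scaling is not given in the sources used here. The 2 lists held 117773 and 102671 peaks, and all heights were whole multiples of 0.00789 (replicate 1) or 0.00849 (replicate 2). Of the tissue's own markers, the 6 urothelial genes, among them the uroplakins Upk2 and Upk1b, and the 5 smooth muscle genes, among them Myh11 and Des, were open in both animals, beside 66.8% of all protein-coding genes. The lowest starts of these lists were those of Trp63 (0.576 in replicate 1 and 0.229 in replicate 2) and Actg2 (0.339 and 0.569). Of genes for other tissues, 0 of 4 liver genes and 3 of 4 neuronal genes were, Snap25 (3.26 in replicate 1 and 2.28 in replicate 2) and Rbfox3 (2.08 and 1.49) highest and Slc17a7 without a start peak. In the authors' shorter peak lists 5 of the 6 urothelial, 2 of the 5 smooth muscle and 2 of the 4 neuronal genes were open in both animals, beside 62.1% of all genes. By the mean of the animals, the median start height was 2.19 for the urothelial, 0.978 for the smooth muscle and 1.10 for the neuronal genes. Neither measure set the smooth muscle list clearly apart from the neuronal one.

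The promoters of 5 genes are shown first because their footprints, short protected stretches within peaks that the authors called in each animal, were counted beside the start heights. Each line gives the 250 bases before the RefSeq transcription start on the gene's own strand, from the GRCm38.p6 table, at chr5:75978456-75978705 for Kdr and chr5:147726012-147726261 for Flt1 (both on the minus strand), and at chr4:94739039-94739288 for Tek, chr2:32646345-32646594 for Eng and chr16:18776597-18776846 for Cldn5 (all on the plus strand). Capitals mark bases inside a footprint of at least 1 animal. The letters are those of the C57BL/6J reference, not of the hybrid animals.
Kdr: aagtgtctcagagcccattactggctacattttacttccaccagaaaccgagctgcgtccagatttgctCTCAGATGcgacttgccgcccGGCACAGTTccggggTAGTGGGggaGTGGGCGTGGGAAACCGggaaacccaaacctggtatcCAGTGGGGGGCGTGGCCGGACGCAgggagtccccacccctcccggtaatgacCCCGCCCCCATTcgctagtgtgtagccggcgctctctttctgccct
Flt1: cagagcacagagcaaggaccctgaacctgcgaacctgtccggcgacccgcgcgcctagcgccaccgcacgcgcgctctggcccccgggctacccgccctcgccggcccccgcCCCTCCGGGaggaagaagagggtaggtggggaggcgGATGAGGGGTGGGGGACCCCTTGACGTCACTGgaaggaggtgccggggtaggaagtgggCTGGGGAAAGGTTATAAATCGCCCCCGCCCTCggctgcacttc
Tek: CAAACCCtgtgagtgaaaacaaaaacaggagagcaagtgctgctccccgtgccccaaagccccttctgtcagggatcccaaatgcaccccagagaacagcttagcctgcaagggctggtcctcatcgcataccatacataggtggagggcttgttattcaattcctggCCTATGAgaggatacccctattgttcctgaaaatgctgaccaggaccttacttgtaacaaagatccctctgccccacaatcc
Eng: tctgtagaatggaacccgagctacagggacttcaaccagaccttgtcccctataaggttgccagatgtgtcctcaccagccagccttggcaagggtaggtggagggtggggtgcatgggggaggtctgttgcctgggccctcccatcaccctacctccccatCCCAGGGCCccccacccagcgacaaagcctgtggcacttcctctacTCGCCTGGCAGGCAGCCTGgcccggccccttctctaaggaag
Cldn5: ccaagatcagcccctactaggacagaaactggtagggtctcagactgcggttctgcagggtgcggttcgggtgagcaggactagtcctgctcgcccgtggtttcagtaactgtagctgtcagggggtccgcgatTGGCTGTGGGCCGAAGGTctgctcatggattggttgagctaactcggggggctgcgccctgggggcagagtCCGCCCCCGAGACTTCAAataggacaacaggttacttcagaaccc
Kdr had 4 footprints in these bases in replicate 1 and 5 in replicate 2, and Flt1 had 3 and 1. Eng had 2 in replicate 1 and 0 in replicate 2, Tek had 0 and 2, and Cldn5 had 2 and 1. The capitals of Kdr and Flt1 thus cover 77 and 73 of the 250 bases, and those of Tek cover 14. RefSeq promoters were matched for 6 of the 10 genes (Kdr, Flt1, Tek, Eng, Erg and Cldn5).

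In all, 8 of the 10 genes were open in both animals at some annotated start, a share to be read against 66.8% of all protein-coding genes. In replicate 1 all 10 were open, against 69% of all genes, and in replicate 2 the same 8 were open, against 68.1%. Pecam1 and Sox18 had a start peak in replicate 1 alone. Counting the most upstream start of each gene instead, 7 of the 10 were open in both animals, beside 62.1% of all genes, because Eng then lacked a peak in replicate 2. The place of the 10 relative to all genes turned with the peaks used: 6 of the 10 were open in both animals in the shorter lists, against 62.1% of all genes, and 3 with the higher 50% of peaks alone, against 60.1%. Within 500 bp of any start 7 of the 10 were open in both, against 65.2% of all genes. At the most upstream start 5 were with 500 bp, and 5 with the shorter lists. No share of all genes stands beside these last counts. The median start height of the 10 genes was 1.11 in replicate 1 and 0.629 in replicate 2 (mean 0.869 ± 0.340, SD, n = 2). That of all protein-coding genes was 2.24 in replicate 1 and 1.72 in replicate 2 (mean 1.98 ± 0.37, SD, n = 2).

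**Figure D1:**
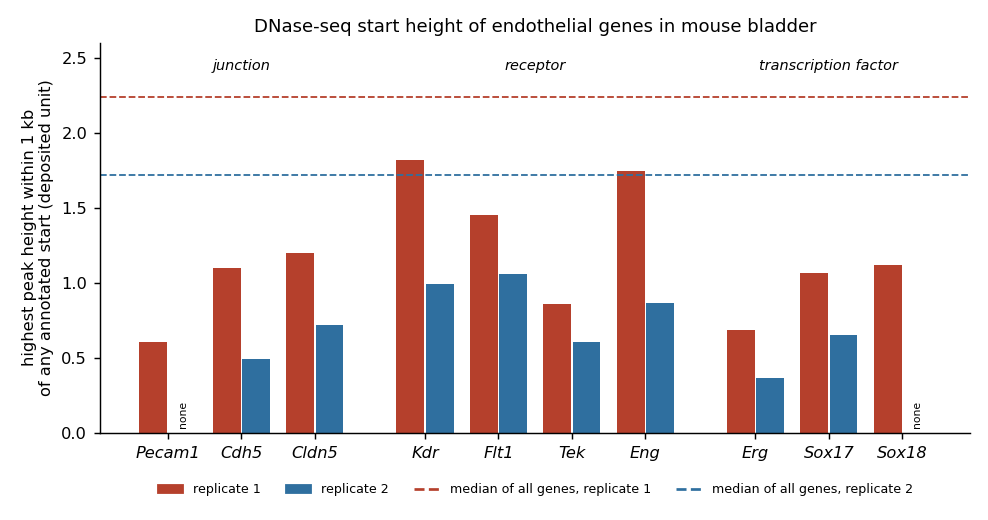
Start height of the 10 genes in both animals, grouped by the role of the protein. Bars give the highest peak within 1000 bp of any annotated start (deposited unit), and dashed lines give the median of all protein-coding genes in the same animal. Each bar lies under the line of its own animal, and Pecam1 and Sox18 have no start peak in replicate 2.

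Among the junction genes, Pecam1, which encodes the adhesion protein PECAM-1 (CD31), had the least open start. The gene lies on the minus strand of chromosome 11, 106654217 to 106750628, and has 8 annotated starts. Its most upstream start had no peak and no stretch among those the authors listed, at false discovery rates of at most 0.05, in either animal. The 4 coding starts placed 35234 to 35369 bp inside the gene, and one more at 35682 bp, shared a peak of 0.608 in replicate 1, whose lowest false discovery rate was 0.00284, while replicate 2 had neither a peak nor a listed stretch there. The 2 remaining starts belong to transcripts with a retained intron and had no peak in either animal.

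Cdh5, on the plus strand of chromosome 8 from 104101625 to 104144511, encodes VE-cadherin, the cadherin of endothelial adherens junctions. Its main start carried a peak of 1.10 in replicate 1 and 0.493 in replicate 2, with 3 footprints in the peak in each animal. A second coding start, 9682 bp inside the gene, had no peak in replicate 1 and one of 0.425 in replicate 2. Cldn5, on the plus strand of chromosome 16 from 18776847 to 18778262, encodes the tight junction protein claudin-5. It had 3 peaks within 1000 bp of its only start and none elsewhere in its window. Their heights were 0.671, 1.20 and 0.647 in replicate 1, from upstream to downstream, and 0.450, 0.348 and 0.722 in replicate 2. The start peak itself was the highest of the 3 in replicate 1 and the lowest in replicate 2, so the order of the 3 differed between the animals.

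The VEGF receptor genes had the highest and the next but one highest mean start heights of the 10. Kdr, which encodes VEGF receptor 2 (chromosome 5, minus strand, 75932827 to 75978458), had a start height of 1.82 in replicate 1 and 0.994 in replicate 2 (mean 1.40 ± 0.58, SD, n = 2). Flt1, which encodes VEGF receptor 1 (chromosome 5, minus strand, 147561604 to 147726011), had 1.45 in replicate 1 and 1.06 in replicate 2 (mean 1.26 ± 0.28, SD, n = 2). Both starts lay in broad open stretches: bases in the listed stretches within 1000 bp of the start numbered 1337 and 1455 for Kdr in replicates 1 and 2, and 1923 and 1593 for the most upstream start of Flt1. At the Kdr start the lowest false discovery rate was 3.15e-19 in replicate 1 and 2.71e-11 in replicate 2. Of the inner Flt1 starts, one 79204 bp inside the gene had a peak of 0.403 in replicate 1 alone, and the starts at 91593 and 110769 bp had none in either animal.

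Tek, which encodes the angiopoietin receptor Tie2, lies on the plus strand of chromosome 4 from 94739289 to 94874976. Its 3 clustered starts shared a height of 0.860 in replicate 1 and 0.603 in replicate 2, and the start of a noncoding transcript 65554 bp inside the gene had no peak in either animal. Eng encodes endoglin and lies on the plus strand of chromosome 2 from 32646595 to 32682669. Its upstream starts had a peak of 1.74 in replicate 1, with a lowest false discovery rate of 2.75e-06, and none in replicate 2, where 27 bases were listed with a lowest rate of 0.0362. Eng counted as open in replicate 2 through inner starts at 26248 and 26771 bp, near which a peak over exon 8 had a height of 1.11 in replicate 1 and 0.866 in replicate 2. The main Eng promoter was thus open in replicate 1 alone, as were the starts of Pecam1 and Sox18.

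Erg encodes an ETS transcription factor and is the longest of the 10 genes, spanning 227 kb of the minus strand of chromosome 16 (95359169 to 95586593). The only start with a peak was the most upstream one, with 0.687 in replicate 1 and 0.365 in replicate 2, and these peaks lay 813 and 884 bp inside the gene rather than over the start. The other 5 starts, from 56228 to 127348 bp inside the gene, had no peak and no listed stretch in either animal. For Sox17 (chromosome 1, minus strand, 4490931 to 4497354), which has 8 starts, the highest peak lay at the inner starts at 3619 and 3750 bp, with 1.07 in replicate 1 and 0.654 in replicate 2. At its upstream starts, where the start of the noncoding gene Gm37587 also lies, the heights were 0.576 in replicate 1 and 0.484 in replicate 2. These came from different peaks, and the one in replicate 1 had no partner in replicate 2. Sox18, a short gene of 1.80 kb on the minus strand of chromosome 2 (181669836 to 181671640), had a start peak of 1.12 in replicate 1, with a lowest false discovery rate of 5.79e-08, and neither a peak nor a listed stretch in replicate 2.

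Ordered by the mean of the animals, start heights ran from Kdr (1.40 ± 0.58) through Eng (1.31 ± 0.62), Flt1 (1.26 ± 0.28), Cldn5 (0.961 ± 0.338), Sox17 (0.860 ± 0.291), Cdh5 (0.795 ± 0.428), Tek (0.732 ± 0.182), Sox18 (0.561 ± 0.793) and Erg (0.526 ± 0.227) to Pecam1 (0.304 ± 0.430; SD, n = 2 each). Flt1 and Cldn5 differed by more than the SD of Flt1 but by less than that of Cldn5, and no other neighbours in this order differed by more than the SD of either. The value of Eng joins its upstream starts in replicate 1 to its inner starts in replicate 2, and at the inner starts alone its mean was 0.986 ± 0.169 (SD, n = 2), next below Flt1. That of Cldn5 joins its start peak in replicate 1 to a peak beginning 494 bp downstream in replicate 2. Site by site, from upstream to downstream, Cldn5 averaged 0.561, 0.774 and 0.685. All 8 genes open in both animals were lower than the median of the 14664 genes open in both, which was 5.06 in replicate 1 and 3.60 in replicate 2 (by definition 50% of these genes lie below it). By the mean of the animals, the same held for all 6 urothelial, all 5 smooth muscle and all 6 pericyte genes. It also held for 13 of the 15 further endothelial genes open in both, and for 7 of 12 endothelial transcription factor genes. A low start was thus not particular to the 10 genes. By the mean of the animals the 8 endothelial genes lay between percentile 3.55 (Erg) and percentile 17.8 (Kdr) of all open genes. All 8 were also higher in replicate 1, as were 90.9% of all open genes, so this direction was near that of the whole library.

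Start height across the genome differed with the CpG content of the start: genes open in both animals had a median of 2.08 (mean of the animals) where the observed over expected CpG ratio was under 0.6 in the 500 bp on either side of the most open start, and of 5.54 elsewhere. Of the 10 genes, 6 (Pecam1, Cdh5, Cldn5, Tek, Eng and Erg) had such a low ratio, from 0.216 (Pecam1) to 0.509 (Cldn5). Of these, 5 were open in both animals, and 40.4% of the 11489 such genes in the genome were. The other 4 genes (Kdr, Flt1, Sox17 and Sox18) had ratios from 0.656 to 0.813. Of these, 3 were open in both, and 95.9% of the 10449 such genes in the genome were. Ranked among open genes of their own CpG class, the 8 genes open in both animals lay between percentile 4.43 (Sox17) and percentile 34.1 (Eng, whose value joins different starts). The next highest was Cldn5 at 23.8, whose value joins different peaks at its start. Kdr and Flt1, at percentiles 17.8 and 15.7 of all open genes, were at 9.15 and 7.88 of the genes in their class, whereas Cldn5 moved from 11.1 to 23.8 and Cdh5 from 8.36 to 18.2.

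**Figure D2:**
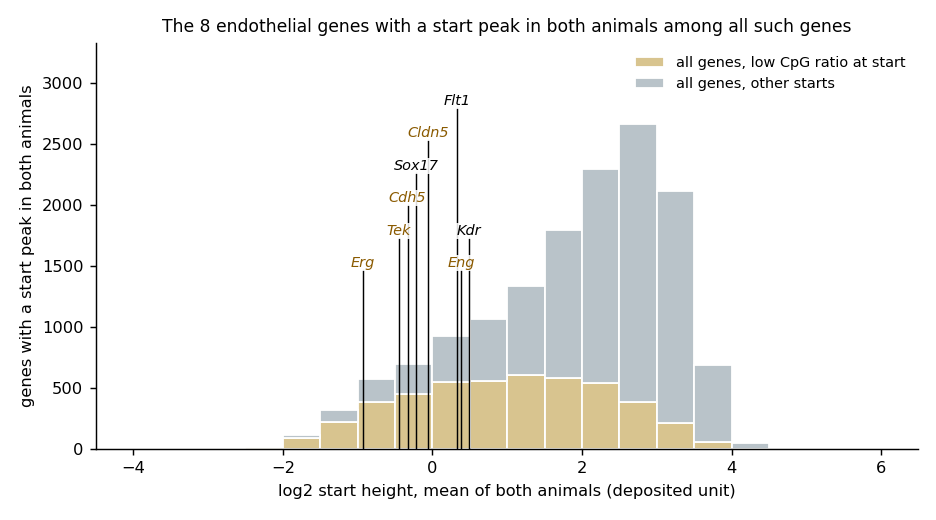
Start height of the 8 genes open in both animals (vertical lines, mean of the animals, log2 of the deposited unit) over the distribution of all 14664 such genes, with genes of low CpG ratio at the start in tan and the others in grey. Gene names in brown have a low CpG ratio, and the lines run from Erg to Kdr, all left of the bulk of the distribution.

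Beyond the starts, the gene body and 20000 bp on either side were searched. These windows held 111 peaks in replicate 1 and 69 in replicate 2, with 255 and 162 footprints. The median gene of the 10 had 0.787 ± 0.088 peaks per 10 kb (SD, n = 2), against 0.720 ± 0.068 for all protein-coding genes, and 1.49 ± 0.35 footprints per 10 kb, against 1.93 ± 0.10. Both directions turned with the processing: peaks per 10 kb were 0.387, against 0.469 for all genes, in the shorter lists, and footprints per 10 kb were 2.03, against 2.00, with 10 kb on either side of the gene. Single genes spread widely around this median. Sox18 had 12 peaks in replicate 1 and 5 in replicate 2, which is 2.87 and 1.20 per 10 kb, and Erg had 13 and 8, which is 0.486 and 0.299 per 10 kb. The windows of Eng, Sox18, Pecam1 (Milr1) and Flt1 (Pan3) hold peaks at the start or in the body of other protein-coding genes. Those peaks are counted in these densities.

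Merged across the animals, the peaks of the windows formed 113 sites, of which 59 (52.2%) were found in both animals, 49 (43.4%) in replicate 1 alone and 5 (4.42%) in replicate 2 alone. Over the genome 132973 sites split into 60.3%, 25.1% and 14.6% in the same order. Seen from each animal, 62 of 111 peaks of replicate 1 (55.9%, 95% exact interval 46.1 to 65.3) had a partner in replicate 2, against 71.5% of all its peaks. In replicate 2, 64 of 69 peaks (92.8%, exact interval 83.9 to 97.6) had a partner in replicate 1, against 80.7% of all its peaks. The intervals cover counting error only. For the 59 shared sites the median was 1.24 in replicate 1 and 0.883 in replicate 2, and for the 49 sites of replicate 1 alone it was 0.576. The larger number of peaks in replicate 1 was thus made up mostly of low sites, although the Eng start and an intron site of Eng, both at 1.74, were among them.

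By position, 41 of the 113 sites lay in an intron of the gene itself (21 in both animals) and 27 outside protein-coding genes (13 in both). A further 23 lay within 1000 bp of the gene's own starts (14 in both), 8 in its exons (4 in both), 8 at the start of another protein-coding gene (4 in both) and 6 in the body of another gene (3 in both). Own-start sites had a median of 0.687 in replicate 1 and 0.501 in replicate 2, each over the sites with a peak in that animal. In the same order the medians were 0.813 and 0.913 for own-intron sites and 0.592 and 0.718 for own-exon sites. No own-start site averaged more than 1.40. The highest site inside one of the 10 genes but away from its starts averaged 3.93.

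**Figure D3:**
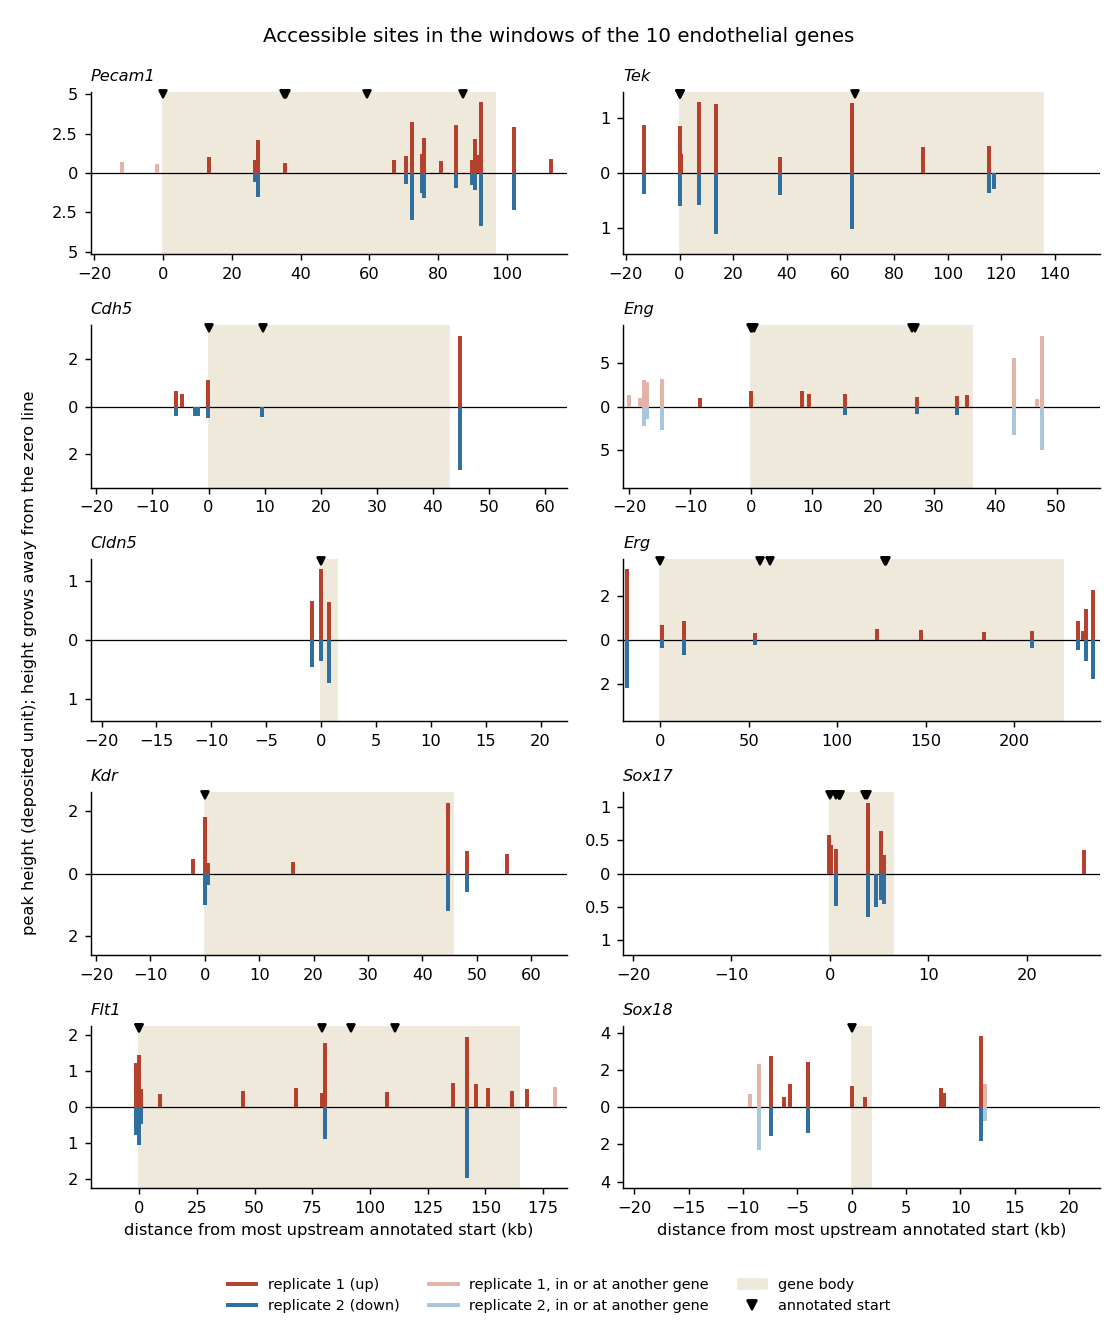
Sites in the window of each gene, placed by distance from the most upstream annotated start in the direction of transcription. Lines upward give replicate 1 and lines downward replicate 2 (peak height, deposited unit, with a scale for each gene), shading marks the gene body, triangles mark annotated starts and pale lines mark sites in or at another gene. The high sites of Pecam1 stand in the downstream part of the gene, those of Eng at its neighbours, and Cldn5 has sites at its start alone.

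Pecam1 had the weakest start and the highest sites within a gene body. Of its 14 intron sites 10 were found in both animals. The highest, in an intron close to the 3′ end, 92427 bp from the most upstream start and 57193 bp from the peak-bearing inner start, reached 4.49 in replicate 1 and 3.37 in replicate 2 and held 4 footprints in each animal. Another, in intron 14 of the transcript with the most upstream start, reached 3.27 in replicate 1 and 2.97 in replicate 2 with 5 footprints in each. The next highest site lay outside the gene, 102117 bp from the most upstream start, with 2.91 in replicate 1 and 2.33 in replicate 2 and letters of a CTCF motif inside a footprint of both animals. The intron sites of Pecam1 found in both animals exceeded its own start peak in replicate 1 in every case, the lowest at 0.797 against 0.608.

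The other junction genes differed from this. Cdh5 had no site in both animals within its body apart from the start; its highest site lay 44876 bp downstream of the start, past the end of the gene, with 2.98 in replicate 1 and 2.67 in replicate 2 and CTCF letters in a footprint of both. Its next highest site after the start, 5803 bp upstream, had 0.639 in replicate 1 and 0.382 in replicate 2 and held 4 matches to the ETS letters, the most of any of the 113 sites. Further upstream sites of Cdh5, at 2491 and 1944 bp, were found in replicate 2 alone with 0.391 each.

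Among the receptor genes, the highest Kdr site was not its start but a site in its last exon, exon 30, 44697 bp downstream, with 2.27 in replicate 1 and 1.21 in replicate 2. It was also the only one of the 113 sites whose ETS letters lay in a footprint of both animals. Kdr had 1 site in its introns more than 1000 bp from the start, in intron 10, with 0.387 in replicate 1 and none in replicate 2. Flt1 had 9 intron sites, of which 2 were found in both animals. The site in intron 20 stood at 1.96 in both animals, and the site in intron 12 had 1.78 in replicate 1 and 0.883 in replicate 2.

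Tek had 7 intron sites, 5 of them in both animals, and 3 of these were the highest sites in its window. The site 13422 bp inside the gene, in intron 1, had 1.26 in replicate 1 and 1.11 in replicate 2. The site in intron 4 had 1.28 and 1.02 in the same order, and another in intron 1, at 7372 bp, had 1.29 and 0.595. In replicate 1 each of the 3 was higher than the Tek start, and in replicate 2 the last of them was not. In the Eng window the highest sites belonged to neighbours: the start of Fpgs, a folate enzyme gene, had 8.07 in replicate 1 and 4.94 in replicate 2, a site in the body of Fpgs had 5.58 and 3.28, and a site in the body of Ak1, an adenylate kinase gene, had 3.11 and 2.71. Inside Eng, named here after their values were seen, sites in intron 1 at 8366 and 9486 bp had 1.74 and 1.38 in replicate 1 and none in replicate 2, and a site in intron 2 had 1.46 in replicate 1 and 0.977 in replicate 2.

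Among the transcription factor genes, Erg and Sox18 had their highest sites outside the gene and Sox17 at its own inner starts. The highest Erg site was 18908 bp upstream of the first start, with 3.23 in replicate 1 and 2.17 in replicate 2, and the next lay past the 3′ end at 244902 bp, with 2.28 and 1.79 and FOX letters in a footprint of both animals. Another, at 240512 bp, had 1.42 in replicate 1 and 0.968 in replicate 2 and CTCF letters. Within the Erg body 3 of 7 intron sites were shared, the highest of them in intron 1 with 0.884 in replicate 1 and 0.679 in replicate 2. Sox18 had its highest site 11899 bp downstream of the start, with 3.80 in replicate 1 and 1.84 in replicate 2. The other high sites lay upstream, at 7371 bp with 2.75 and 1.53, and at the start of Tcea2, a transcription elongation factor gene, with 2.31 and 2.28. All 8 sites of Sox17 but 1 lay within or next to the gene, and none averaged more than 0.860.

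Letters of motifs for factors that act in endothelium were then counted on both strands of the peaks. The letters searched for ETS factors were CAGGAAG and, as the second form, CCGGAAG. Those for FOX factors were TGTTTNC, and those for the joint FOX and ETS arrangement, which contains an ETS match, were AACAGGAAG. The SOX letters were AACAAT, the GATA letters were AGATAA, the RBPJ letters were GTGGGAA, the AP-1 letters were TGANTCA, the KLF and SP letters were GGGNGTG and the TEAD letters were GGAATG, and CTCF was searched by its consensus. ETS letters were found in 25 of 111 peaks of the windows in replicate 1 (22.5%, 95% exact interval 15.1 to 31.4) and in 16 of 69 in replicate 2 (23.2%, 13.9 to 34.9). All peaks held them in 14.0% in replicate 1 and 15.1% in replicate 2. SOX letters were in 12.6% of window peaks in replicate 1 (7.07 to 20.3) against 5.01% of all peaks, and in 8.70% in replicate 2 (3.26 to 18.0) against 5.78%. For SOX the interval of replicate 2 includes the share of all peaks, and for ETS the same holds in replicate 2. Most of these peaks share genes, so they are not independent of each other, and the intervals again cover counting error only.

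The other motifs lay on either side of the share of all peaks. KLF and SP letters were in 15.3% of window peaks in replicate 1 and 11.6% in replicate 2, against 20.3% and 21.6% of all peaks. TEAD letters were in 16.2% and 15.9%, against 10.9% and 12.7%, and GATA letters in 9.01% and 8.70%, against 6.11% and 6.67%. For these motifs and for FOX, RBPJ, AP-1 and CTCF the share of all peaks lay within the exact interval of the window peaks in both animals, except for KLF and SP in replicate 2, where the upper limit of the interval, just under the share of all peaks, also rounds to 21.6%.

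**Figure D4:**
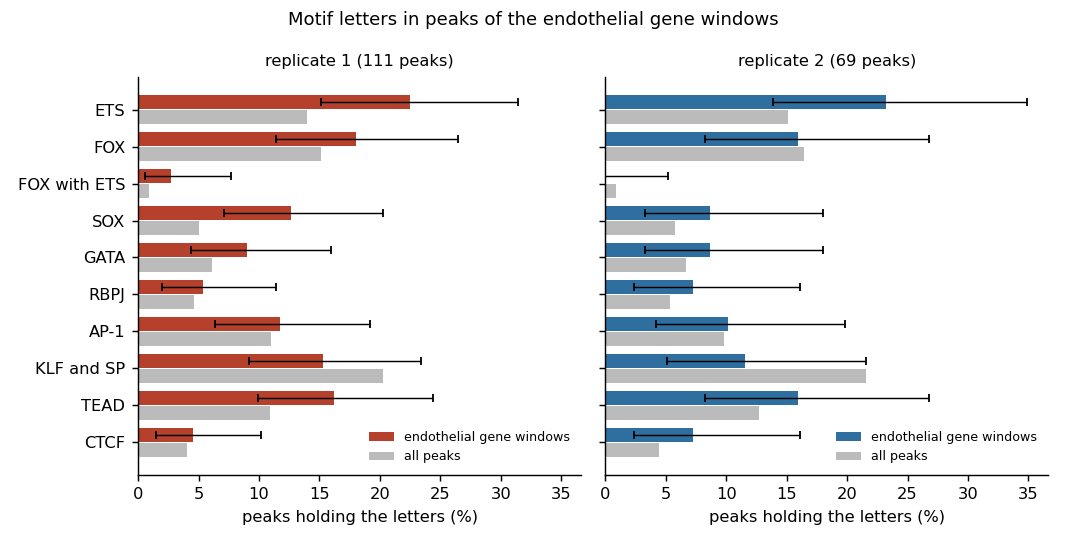
Share of peaks that hold each set of letters, in the windows of the 10 endothelial genes (coloured bars) and among all peaks (grey bars), for each animal. Error bars are 95% exact binomial intervals of the window peaks. The ETS share of the windows is above that of all peaks in both animals, and only in replicate 1 does its interval stay clear of it.

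Of the 29 sites with ETS letters, 13 were among the 41 intron sites, 8 among the 27 outside protein-coding genes and 3 among the 23 own-start sites. Pecam1 had 8 of the 29, of which 6 were found in both animals, and Erg had 0 of its 13 sites. Footprints overlapped the letters rarely: 5 of 255 footprints in replicate 1 (1.96%) and 1 of 162 in replicate 2 (0.617%) held ETS letters, against 1.54% and 1.50% of all footprints. For promoters the letters were searched from 250 bp before the RefSeq start to 50 bp after it, further than the lines printed above. Among 8 such promoters of 6 of the genes, 1 promoter of Erg held ETS letters, beside 20.9% of 32851 promoters of the same length. FOX letters were in the most, 5 promoters (of Erg, Kdr and Tek), beside 20.5%. KLF and SP letters were in 4 promoters (of Kdr, Flt1 and Erg), beside 29.2%, although the printed Flt1 line holds 0 matches to them. In the site at the Kdr start all 3 matches to the KLF and SP letters lay in a footprint in replicate 1 and 2 of them in replicate 2, and a match to the RBPJ letters did so in both. A match counted where it lay in a footprint extended by 5 bp, so part of it can be in lower case in the Kdr line above.

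CTCF is the factor that bounds many chromatin loops. Its letters were in 5 of the 113 sites, in the windows of Pecam1, Cdh5, Eng, Erg and Sox18, and all 5 were found in both animals. None of them lay within 1000 bp of a start of the 10 genes or in their introns or exons, and in 4 the letters lay in a footprint of both animals. The joint FOX and ETS letters, by contrast, were in 3 sites, of Kdr, Eng and Sox18, all found in replicate 1 alone.

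The distal peaks of 3 genes, named after their values were seen, are printed on the strand of their gene. Those of Kdr and Eng hold the joint letters, and that of Tek holds 2 ETS matches without the joint letters. Capitals mark the joint FOX and ETS letters in the Kdr peak of intron 10 (chr5:75962232-75962402, minus strand) and in the Eng peak 8444 bp upstream of the start (chr2:32638057-32638245, plus strand), and both ETS matches in the intron 1 peak of Tek as called in replicate 2 (chr4:94746544-94746820, plus strand). All come from the GRCm38.p6 genome.
Kdr intron 10: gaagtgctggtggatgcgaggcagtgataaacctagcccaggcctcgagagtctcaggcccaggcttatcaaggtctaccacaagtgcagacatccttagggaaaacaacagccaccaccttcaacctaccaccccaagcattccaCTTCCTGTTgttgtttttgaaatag
Eng upstream: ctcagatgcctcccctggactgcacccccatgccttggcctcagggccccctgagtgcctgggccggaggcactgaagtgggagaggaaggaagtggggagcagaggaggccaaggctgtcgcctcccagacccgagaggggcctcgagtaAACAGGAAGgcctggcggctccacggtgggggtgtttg
Tek intron 1: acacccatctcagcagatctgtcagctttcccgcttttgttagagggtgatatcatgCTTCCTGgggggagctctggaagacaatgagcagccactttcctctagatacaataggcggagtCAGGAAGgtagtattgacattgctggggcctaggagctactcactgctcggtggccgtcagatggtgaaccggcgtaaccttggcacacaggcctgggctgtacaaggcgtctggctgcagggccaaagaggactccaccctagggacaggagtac
The Kdr and Eng peaks had heights of 0.387 and 0.947 in replicate 1 and none in replicate 2. The joint letters of the Kdr peak lay in a footprint of replicate 1, and those of the Eng peak did not. In the Tek peak 1 of the 2 ETS matches lay in a footprint of replicate 1 and none in replicate 2.

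Replicate 1 had a higher summed peak height than replicate 2 in each of the 10 windows. The log2 ratio of summed peak height, replicate 1 over replicate 2 with a pseudocount of 1, had a median of 0.448 over all protein-coding genes, and values below are relative to it. Relative to the median gene the ratio was positive for 8 of the 10 genes, with a median of 0.31. Beside this stand 50% of all genes by definition, and quartiles of all genes at -0.28 and 0.19. Flt1 had the highest value, 0.77, with sums of 14.8 in replicate 1 and 5.78 in replicate 2, and Sox18 followed with 0.70 (18.5 and 7.79). Peak bases covered 3336 bp in replicate 1 and 1762 bp in replicate 2 for Flt1, with mean heights of 0.823 and 0.964, so there the sum was greater in replicate 1 while the mean height was not. The lowest values were those of Cdh5, -0.33 (sums of 5.26 and 4.75), and Sox17, -0.29 (3.73 and 3.25). Restricted to peaks found in both animals, the median of the 10 was 0.09. By this measure 14 of 20 further endothelial genes were higher in replicate 1, with a median of 0.107, within the quartiles of all genes. So were 9 of 12 endothelial transcription factor genes (median 0.185), 6 of 6 urothelial genes (0.41) and 3 of 5 smooth muscle genes (0.187). Fewer were among the pericyte genes (2 of 6, median -0.130) and the VEGF and angiopoietin ligand genes (3 of 7, -0.162). The part of tissue composition in these differences was not tested.

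Further genes of the same cells gave the wider setting. Of 20 further endothelial genes, 15 were open in both animals, beside 66.8% of all genes, and 12 were at the most upstream start and 11 in the shorter lists, each beside 62.1%. The 20 had a median start height of 0.995 in replicate 1 and 0.858 in replicate 2. Efnb2, which encodes the arterial ligand ephrin-B2, had 8.67 in replicate 1 and 6.12 in replicate 2, and Ephb4, its venous receptor, had a mean of 5.88. Which cells of the whole tissue gave these high starts cannot be told here. Emcn, Plvap and Rasip1 had no start peak in either animal. All 12 further endothelial transcription factor genes were open in both animals, with medians of 2.54 and 1.81, and 10 of the 12 lacked a low CpG ratio. Ets1 (11.1 in replicate 1 and 6.93 in replicate 2) and Klf2 (11.6 and 6.08) stood highest and Fli1 (1.04 and 1.08) lowest. Several of these factors, Klf4 and Nr2f2 among them, are also made by cell types other than endothelium.

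Of 7 genes for ligands of the VEGF and angiopoietin receptors, 6 were open in both animals. This count and those of the lists below stand beside 66.8% of all protein-coding genes. The share was 40.4% for genes with a low CpG ratio and 95.9% for the others. A low ratio held for 4 of the 7 ligand, 5 of the 6 pericyte and 3 of the 5 lymphatic genes. It also held for all 7 leukocyte and all 4 platelet genes. Vegfa, whose product binds the receptors encoded by Kdr and Flt1, had the highest start, 6.18 in replicate 1 and 5.30 in replicate 2, above the start of either receptor gene. Pgf, which encodes a ligand of the Flt1 receptor, had 3.02 and 2.71, and Angpt2, which encodes a Tie2 ligand, had no start peak in either animal. Among the markers of neighbouring cells, all 6 pericyte genes were open in both animals, led by Kcnj8 (2.57 and 1.49) and Cspg4 (2.16 and 1.48), with Abcc9 lowest (0.750 and 0.595). Of 5 lymphatic genes 2 were open in both, Pdpn (1.79 and 1.40) and Prox1 (1.21 and 1.01), and Lyve1 and Ccl21a had no start peak in either animal. Of 7 leukocyte genes 1 was open in both animals, Adgre1 (0.561 and 0.459), and 5, Ptprc among them, had no start peak in either, and Pecam1 is expressed by blood cells too. Of 4 platelet genes, 1 was open in both, Itga2b, with 11.8 in replicate 1 and 9.18 in replicate 2. It was open in both through an annotated start other than its most upstream one, where 0 of the 4 were, beside 62.1% of all genes.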

How the data were processed

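Bladder DNase-seq of 2 animals was analysed from the files the authors deposited, on mm10 per the labels. For each animal the authors deposited 2 peak lists, a footprint list and a list of stretches with a false discovery rate, called in that animal alone. Peak height is a signal computed by the authors; the sources used here name no scaling, aligner or peak caller. The deposited p-value columns are false discovery rates of cut-rate stretches, at most 0.05, and for footprints a constant threshold. Depth is unknown. All heights were whole multiples of a step (100% within 0.05 of a step), and the lowest peak in the windows of the 10 genes was 35 steps high in replicate 1 and 28 in replicate 2.

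The longer peak list was the main one (117773 and 102671 peaks), and the shorter one (73247 and 61717) an alternative. An overlap needed 1 shared bp or more. Starts were every GENCODE M21 transcript start with 1000 bp on either side, and windows were the gene body with 20000 bp on either side. Footprints were extended by 5 bp for motif letters. Sequence came from RefSeq's GRCm38.p6, whose chromosome lengths hold all peaks. Python 3.11.15, numpy 2.4.6, pandas 2.3.3, pysam 0.24.0 and samtools 1.23.1 were used, and the overlap functions were tested on simulated data. No test between groups was possible. The 10 genes, the marker lists and the measures were chosen with earlier results of these data known. Named genes were the 10, the 2 highest and the 1 lowest by mean start height of most further lists, and neighbours whose peaks a result turned on. A few others were named as examples. The leukocyte, platelet and liver lists, in which most genes had no start peak, were named in part or not at all. Named sites were mostly among the 3 highest of each gene and those at its own starts, but not all such sites were named. A few further sites were named after their values were seen. Alternatives changed the start, the window, the peak list, the overlap rule and the scaling, and left out each animal.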

Additional observations from a re-analysis of the deposited data

How the results depend on the processing

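The median difference between the animals kept its sign under every alternative, but the place of the 10 genes relative to all genes did not keep its side for the open calls, peak density or footprint density. With the higher 50% of peaks alone, 3 of the 10 genes were open in both animals at any start and 2 at the most upstream start, in place of 8 and 7 (60.1% of all genes at any start), so most of the calls rest on peaks of low height; peaks per 10 kb were then 0.211, against 0.389 for all genes. Peaks per 10 kb were 1.08 with a window of 10 kb and 0.387 with the shorter list (0.787 in the report, against 0.720; all genes 0.736 and 0.469 under the alternatives), and footprints per 10 kb were 2.03 with a window of 10 kb, against 2.00 for all genes (1.49 against 1.93 in the report). The share of peaks found in both animals, 74.3% as the mean of the animals, was 47.0% when an overlap of 50% of both peaks was asked for, against 60.8% of all peaks. The ETS share, 22.9% as a mean, was 17.7% around peak midpoints (all peaks 11.4% in replicate 1 and 10.6% in replicate 2), 18.0% with the shorter list (all peaks 15.2%) and 25.4% in the higher 50% of peaks (all peaks 18.3%). The median difference between the animals, 0.31, was 0.086 for shared peaks, 0.42 with the shorter list, 0.39 and 0.19 with windows of 10 and 50 kb, and 0.40 after quantile scaling; the causes were not tested.

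With either animal alone, 8 to 10 genes were open at any start, 7 to 9 at the most upstream start and 15 to 17 of the further endothelial genes. The median start height was then 0.629 to 1.11, peaks per 10 kb 0.724 to 0.849, footprints per 10 kb 1.24 to 1.73 and the ETS share 22.5% to 23.2%. Chosen after seeing the data, a peak at the same start in both animals gave 8 genes and 14 further endothelial genes, and leaving out peaks at starts of other genes gave 0.787 peaks per 10 kb, against 0.540 for all genes. No paired analysis was possible because the animals form 1 group. Unknown depth and scaling limit any comparison of heights between the animals, and a start without a peak was not detectably open rather than closed.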
